A study of Homo sapiens with 96 samples.

Results

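The 44 genes described here act in the G2 phase and in mitosis. They were chosen by symbol for their known roles, and all 44 were found among the 60552 gene rows of the count matrix, each as a protein-coding gene. They comprise the cyclins with CDK1 and its activator CDC25C (5 genes), mitotic kinases (6), checkpoint and anaphase-promoting complex genes (5), the chromosomal passenger complex (3), kinesins (6), centromere and kinetochore proteins (7), spindle and cytokinesis proteins (8), and 4 genes of chromosome structure, transcription and other roles. RNA was sequenced from 6 human acute myeloid leukaemia (AML) cell lines (THP1, OCIAML3, MV411, MOLM13, HL60 and Kasumi1). Each line received vehicle (DMSO at 0.1%), the LSD1 inhibitor GSK2879552 at 1 µM (labelled 552A), all-trans retinoic acid (ATRA) at 100 nM, or both drugs at those doses (labelled Combo), for 2 or 4 days. LSD1 is a histone demethylase, and ATRA activates the retinoic acid receptors. Each of the 48 groups had 2 replicates, which gave 96 libraries. The labels do not say that replicates were separate cultures, and the spread behind each p-value of a line may therefore be technical. Each line is an established culture from a single patient's leukaemia, so a response of a line stands for that line and not for an AML subtype.

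A dividing cell enters mitosis when cyclin B bound to CDK1 becomes active, builds a spindle with the help of Aurora and Polo-like kinases and of motor kinesins, and holds sister chromatids together until kinetochores are attached. The anaphase-promoting complex, with its activator CDC20, then marks cyclin B and securin for destruction, and the cell divides. The genes for this machinery are transcribed mainly in G2 and mitosis, through promoters bound by the MuvB complex with B-MYB and FOXM1 in dividing cells and by the DREAM complex in resting cells. The sequence element known for this control is the cell cycle genes homology region, TTTGAA or TTTAAA, and it is often found with CCAAT boxes. In a bulk RNA library, fewer dividing cells and less of each transcript per dividing cell cannot be told apart.

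The proximal promoters of 5 genes are shown because these genes carried large or well-known changes in the results. Each is the 150 bases before the transcript start in RefSeq (GRCh38.p14). Capitals mark the homology region motif (both forms) and the CCAAT motif on either strand.
CCNB1, chr5:69167000-69167149, plus strand: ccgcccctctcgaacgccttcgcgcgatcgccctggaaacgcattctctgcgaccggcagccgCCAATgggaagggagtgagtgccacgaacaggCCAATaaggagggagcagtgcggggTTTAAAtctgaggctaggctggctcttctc
PLK1, chr16:23678739-23678888, plus strand: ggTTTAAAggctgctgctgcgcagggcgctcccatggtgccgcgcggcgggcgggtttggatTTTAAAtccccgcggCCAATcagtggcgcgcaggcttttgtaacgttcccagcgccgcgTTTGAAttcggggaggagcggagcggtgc
CDC20, chr1:43358831-43358980, plus strand: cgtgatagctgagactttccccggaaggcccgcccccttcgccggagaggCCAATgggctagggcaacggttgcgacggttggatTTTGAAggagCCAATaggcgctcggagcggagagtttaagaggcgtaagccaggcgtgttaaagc
SPC24, chr19:11155783-11155932, minus strand: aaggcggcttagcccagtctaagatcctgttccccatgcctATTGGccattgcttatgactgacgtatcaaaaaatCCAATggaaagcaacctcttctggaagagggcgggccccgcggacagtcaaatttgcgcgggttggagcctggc
KIF20A, chr5:138178962-138179111, plus strand: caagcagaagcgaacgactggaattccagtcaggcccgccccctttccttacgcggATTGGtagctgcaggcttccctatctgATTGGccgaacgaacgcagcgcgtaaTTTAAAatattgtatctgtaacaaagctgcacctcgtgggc
The TTTAAA of CCNB1 begins 30 bases before the start, the nearest TTTGAA of PLK1 29 bases before it and the TTTGAA of CDC20 65 bases before it. KIF20A holds TTTAAA 41 bases before the start, and SPC24 holds only CCAAT motifs in the bases shown. The table held 45 promoters of 38 of the 44 genes, each of 300 bases, and no entry for AURKA, BIRC5, FOXM1, TPX2, TTK or UBE2C. TTTGAA or TTTAAA occurred in 37 of the 45 (82.2%), against 24% of all 35116 promoters of that length, and CCAAT in 36 (80.0%), against 34.6%. Both kinds of motif occurred together in 30 of the 45 promoters (66.7%), against 9.3% of all. TTTGAA, with or without TTTAAA, was found in 31 (68.9%, against 15.2%). TTTAAA, which reads the same on both strands, was found in 14 (31.1%, against 12.2%), with or without TTTGAA. These are matches of letters, not measured binding.

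Library totals ran from 12.82 to 40.95 M counts, with 22.88 M as the median, and the lowest count of any of the 44 genes in any library was 43, for SPC25. CPM are a gene's counts per 1 M counts of the normalised library total, and every log2 value is a difference between groups unless called a level. The leukocyte and myeloid genes PTPRC, CD33, SPI1, CEBPA, CD4 and LYZ were present in every line (line medians of 9.27 to 2790 CPM). The erythroid gene HBB, the B cell gene MS4A1 and the fibroblast gene DCN had a median of 0 CPM in every line. EPCAM (113 CPM in Kasumi1), CD79A (34 in HL60) and CD3D (16.1 in MOLM13) were each highest by far in a single line. CD79A was also present at a lower level in Kasumi1 (median of 2.24 CPM). Libraries of a group differed most along a trend with gene GC content, measured as the slope of a library's log2 levels against gene GC, which ran from -0.954 to 0.374 per 10% GC, and 5 libraries lay far from the others of the same line. The 44 genes span 35.3 to 59.6% GC. Counts against DMSO, between Combo and each single agent, and between the vehicle days were therefore also taken after a GC and length correction. So were the F tests between lines and the day 4 contrast of Combo beyond the sum of both agents. Corrected counts are given where they moved by more than 1.5 times. The other contrasts between days, the day 2 contrast beyond the sum, the contrasts of a line against the others and the other gene lists were not corrected.

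The largest response was that of THP1 to both drugs together. On day 4 all 44 genes fell in Combo against DMSO, where 16.7% of all 19916 genes tested were called lower (adjusted p under 0.05, edgeR's quasi-likelihood test). The median change of the 44 was -2.33 on the log2 scale, to 0.199 of the vehicle level, against -0.02 over all genes. The changes ran from -3.41 for SPC24, a kinetochore protein, to -1.40 for ECT2, which activates RhoA at cytokinesis, and the adjusted p ran from 1.02e-07 to 0.00748. Both Combo libraries lay below both DMSO libraries for all 44 genes on day 4, which held for 32.8% of all genes, and on day 2, when it held for 34.5%. The summed level of the 44 genes was 7252 ± 864 CPM in DMSO on day 4 and 1572 ± 156 CPM in Combo (SD, n = 2 each). GC slopes were 0.224 and -0.441 in these Combo libraries and 0.278 and 0.147 in the DMSO libraries. After the GC correction all 44 genes were still called lower (25.2% of all genes), with a median of -2.42.

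**Figure D1:**
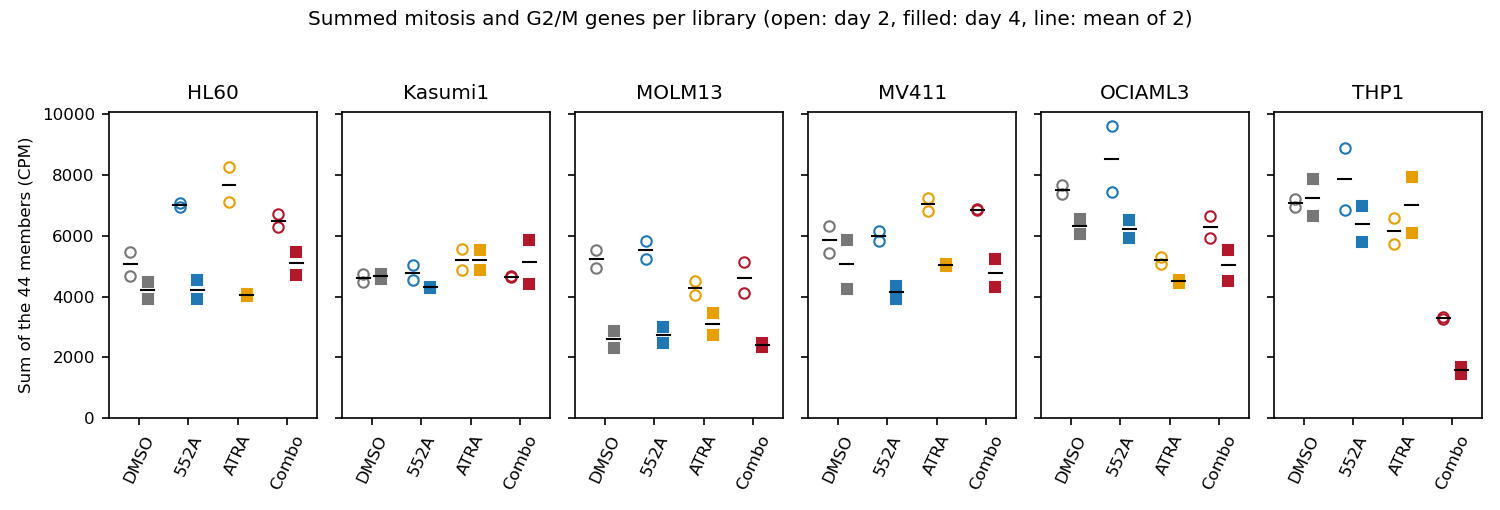
Summed level of the 44 genes in CPM (vertical axis) in each of the 96 libraries, by line, treatment and day, with open points for day 2, filled points for day 4 and a short line at the mean of 2. The THP1 Combo libraries of day 4 are the lowest, at 1462 and 1683 CPM, and the MOLM13 libraries of day 4 are lower than those of day 2.

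By role, every gene of each group fell in THP1 on day 4 of Combo. Among the cyclins and CDK1, CCNB1 (cyclin B1) stood at 255.0 and 222.5 CPM in the DMSO libraries and at 51.8 and 53.1 CPM in the Combo libraries, a change of -2.26 ± 0.14 (log2, SE) or 4.79-fold lower. CDK1, the kinase that drives entry into mitosis, stood at 76.1 CPM in both DMSO libraries and at 15.0 and 18.2 CPM in Combo, 4.83-fold lower. The groups did not overlap for either gene, and the 5 genes of this role had a median change of -2.45.

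The 6 mitotic kinases had a median of -2.33. PLK1, the Polo-like kinase of spindle assembly and mitotic exit, stood at 86.4 and 84.5 CPM in DMSO and at 14.1 and 7.57 CPM in Combo, a change of -3.04 ± 0.36, or 8.23-fold lower. The Combo libraries differed from each other by more for PLK1 than for CCNB1 but stayed far below both DMSO libraries. BUB1, a kinase of the spindle checkpoint, went from 217.5 and 235.1 CPM to 38.9 and 47.7 CPM (-2.46 ± 0.18). AURKA, the Aurora kinase of the spindle poles, had the least change of the kinases, from 163.4 and 147.5 CPM to 49.7 and 52.1 CPM (-1.68 ± 0.15).

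The 5 checkpoint and anaphase-promoting complex genes had a median of -2.53. CDC20, the activator of that complex, was among the most abundant of the genes in THP1, at 844.5 and 772.5 CPM in DMSO, and stood at 150.5 and 88.2 CPM in Combo, 7.10-fold lower (-2.83 ± 0.35). PTTG1 (securin), which holds separase inactive, went from 126.1 and 115.9 CPM to 21.2 and 22.9 CPM (-2.53 ± 0.18). MAD2L1, the checkpoint protein that restrains CDC20, changed by -2.84. The chromosomal passenger genes, which position Aurora B, had a median of -2.57, with BIRC5 (survivin) at -2.66 and CDCA8 (borealin) at -2.57.

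The 7 kinetochore and centromere genes spanned the widest range, from SPC24 (104.0 and 89.6 CPM in DMSO, 11.6 and 7.39 CPM in Combo, 10.7-fold lower) to CENPE, a kinesin of the kinetochore (70.8 and 163.5 CPM in DMSO, 22.5 and 39.0 CPM in Combo, -2.01 ± 0.48). The DMSO libraries disagreed on CENPE by more than on any other gene given here, and its adjusted p of 0.00748 was the largest of the 44. SPC25, the partner of SPC24 in the NDC80 complex, changed by -3.13. The 6 kinesins had a median of -2.20; KIF20A, a midzone motor needed for cytokinesis, went from 141.3 and 130.3 CPM to 23.3 and 24.3 CPM, 6.00-fold lower. The 8 spindle and cytokinesis genes had a median of -2.18, with TPX2, the spindle activator of Aurora A, at -2.54.

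Of the remaining 4 genes, FOXM1, the transcription factor of the G2 and M programme, stood at 38.6 and 43.9 CPM in DMSO and at 5.57 and 6.41 CPM in Combo, 7.25-fold lower. MKI67, which encodes the proliferation antigen Ki-67, went from 169.3 and 234.2 CPM to 32.7 and 45.8 CPM (-2.44 ± 0.21). TOP2A, the topoisomerase that untangles sister chromatids, was among the least changed, from 704.4 and 980.4 CPM to 234.3 and 306.4 CPM (-1.71 ± 0.25, 3.28-fold lower). All 44 were called lower in THP1 with DESeq2 and with the replicate block too, and 43 or 44 were when each of the 16 libraries was left out, with 43 without Combo day 4 replicate 1 or DMSO day 4 replicate 2.

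**Figure D2:**
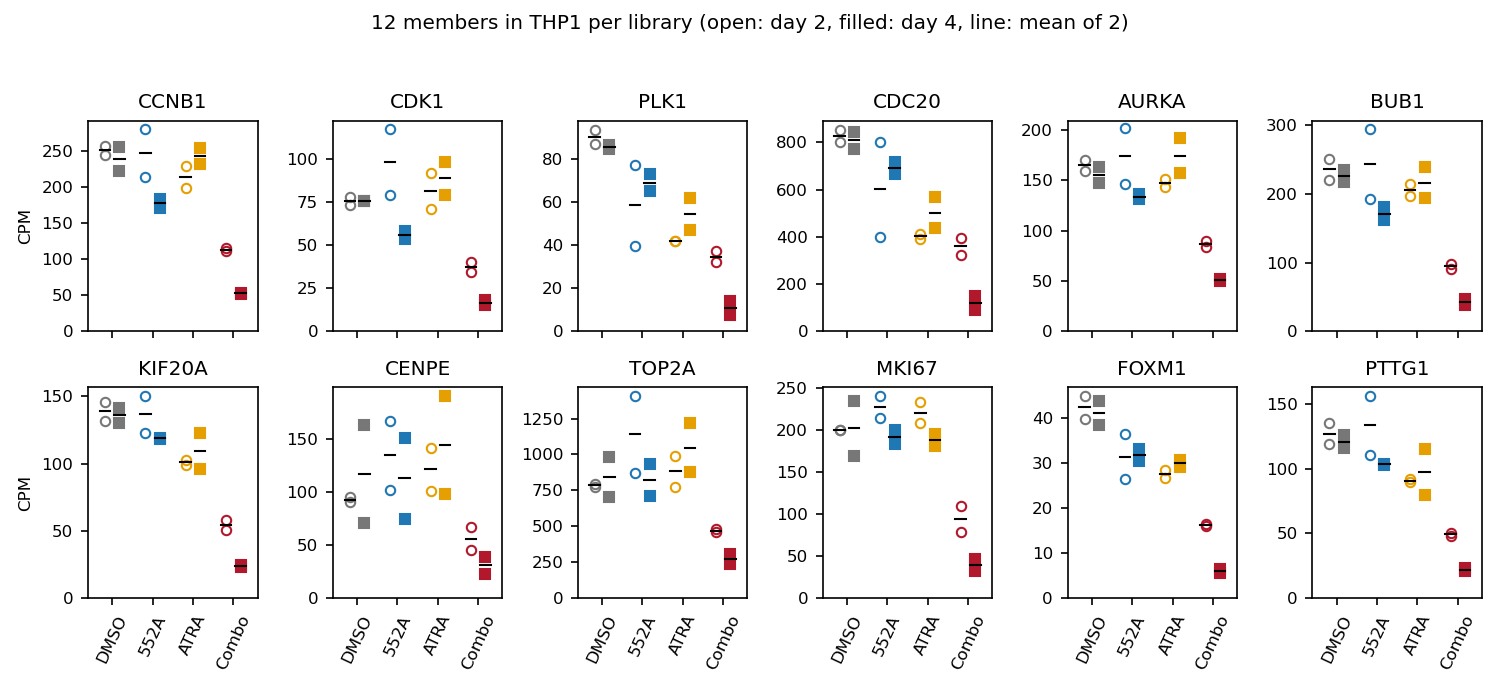
Levels of 12 of the genes in THP1 in CPM (vertical axis, linear from 0, 1 panel for each gene) by treatment, with open points for libraries of day 2, filled points for day 4 and a short line at the mean of 2. In all 12 panels both Combo libraries of day 4 lie below both DMSO libraries, as for CCNB1 at 51.8 and 53.1 against 255.0 and 222.5 CPM.

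The single agents gave no such fall in THP1. With 552A none of the 44 passed the test on day 2 (1.74% of genes called lower, 4.99% higher) or on day 4 (2.13% and 4.74%). On day 4 12 of the 44 had an unadjusted p under 0.05, the median was -0.30, and DESeq2 called 3 lower; on day 2 the corresponding values were 4, 0.04 and 0. After the GC correction 24 were called lower with 552A on day 4 (11.4% of all genes), with a median of -0.34. Without 552A day 2 replicate 1 and replicate 2, 6 and 4 were called lower on day 4. On day 2, 7 were called lower and 5 higher without 552A day 2 replicate 1. Replicate 2 of that group is among the libraries that stand apart, with a GC slope of -0.811 and 397.8 CPM of CDC20 against 803.9 CPM in replicate 1.

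ATRA lowered 10 of the 44 in THP1 on day 2 (5.72% of genes), and none passed the test on day 4 (5.39% lower, 8.86% higher; 12 with an unadjusted p under 0.05; 0 in DESeq2; median -0.14). The 10 were PLK1 (-1.19 ± 0.33), CDC20 (-1.12 ± 0.33), SPC24, FOXM1, CENPA, KIF2C, PTTG1, UBE2C, KIF20A and CCNB2. Over the 44 genes the change of day 2 had a Pearson correlation of -0.893 with gene GC content, given as a description. The day 2 count was 0 without ATRA day 2 replicate 1, ATRA day 2 replicate 2 or DMSO day 2 replicate 2, 1 without DMSO day 2 replicate 1, 2 without either 552A day 4 library, 3 without Combo day 2 replicate 1 or either DMSO day 4 library and 6 without Combo day 2 replicate 2. After the GC correction it was 30, and 21 on day 4, where it was 4 and 6 without 552A day 2 replicates 1 and 2. Of all genes, 17.2% on day 2 and 17.7% on day 4 were called lower with ATRA after the GC correction. PLK1 stood at 62.0 and 46.9 CPM in the ATRA libraries of day 4 and at 72.8 and 65.1 CPM in the 552A libraries, all below the DMSO libraries and all above the Combo libraries. CCNB1 stood at 231.7 and 254.7 CPM with ATRA and at 183.4 and 171.0 CPM with 552A, so the ATRA libraries overlapped the range of the DMSO libraries.

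Against each single agent, Combo was lower for 44 of the 44 on day 4, with a median of -2.10 against 552A (12.1% of genes called lower) and -2.21 against ATRA (7.66%). On day 2 it was lower for 39 against 552A (12.6%) and for 31 against ATRA (5.95%), a count that was 9 without Combo day 2 replicate 2, 12 without ATRA day 2 replicate 1 and 17 without Combo day 2 replicate 1. In a contrast added after the data were seen, the Combo change of day 4 went beyond the sum of both single-agent changes on the log2 scale for 35 of the 44 (1.91% of genes), with a median of -1.91. This count was 27 to 40 when single libraries were left out. On day 2 only 4 of the 44 did so (0.864% of genes; 34 with an unadjusted p under 0.05).

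The fall in THP1 was present on day 2 and deeper on day 4. On day 2 Combo was lower than DMSO for 39 of the 44 (13.4% of genes), with a median of -1.21. SPC25 (-1.92) and MAD2L1 (-1.74) changed most, and the 5 genes that did not pass were INCENP, CENPE, CENPF, ASPM and HMMR, at -0.80 to -1.24. CCNB1 stood at 245.0 and 256.3 CPM in DMSO and at 114.8 and 111.7 CPM in Combo on day 2. PLK1 stood at 93.5 and 86.8 CPM and at 37.0 and 32.3 CPM. CDC20 stood at 854.6 and 802.8 CPM and at 396.8 and 322.1 CPM. For these 3 genes the DMSO libraries of day 2 were near those of day 4, while the Combo libraries of day 4 lay below those of day 2. In a contrast added after the data were seen, Combo libraries of day 4 were lower than those of day 2 for 32 of the 44 (1.82% of genes; median -1.19). The drug effect itself differed between the days for 6, namely CCNB2, UBE2C, CDCA8, KIF2C, KIF20A and PRC1 (0.191% of genes; 36 with an unadjusted p under 0.05).

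The lines did not respond alike to Combo. Tested by F over the interaction of line and treatment on day 4, the response to Combo differed between lines for 43 of the 44 genes (33.5% of 23385 genes), all but INCENP (adjusted p 0.062), with the smallest adjusted p, 4.52e-11, for PRC1, a midzone microtubule bundler. The response to ATRA differed for 21 (31.2%), led by KIF2C, CCNA2 and PTTG1, and for 37 after the GC correction. The response to 552A differed for none (5.74%, with 3 of the 44 at an unadjusted p under 0.05) and for 1 after the GC correction. The share of all genes after the correction was not taken for these F tests. The corrected counts of 37 and 1 therefore have no background, and the shares of 31.2% and 5.74% are from before it. In a contrast added after the data were seen, the Combo change in THP1 minus the mean change of the other 5 lines was called lower for all 44 (6.62% of genes), with a median of -2.19, a range from -3.32 for SPC25 to -1.41 for AURKA, and adjusted p of at most 0.0266. The same difference was called higher for 1 gene in OCIAML3 (4.21%), 3 in MV411 (3.24%), 8 in MOLM13 (2.77%), 11 in Kasumi1 (4.34%) and 20 in HL60 (8.29%), each against a mean that contains THP1.

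**Figure D3:**
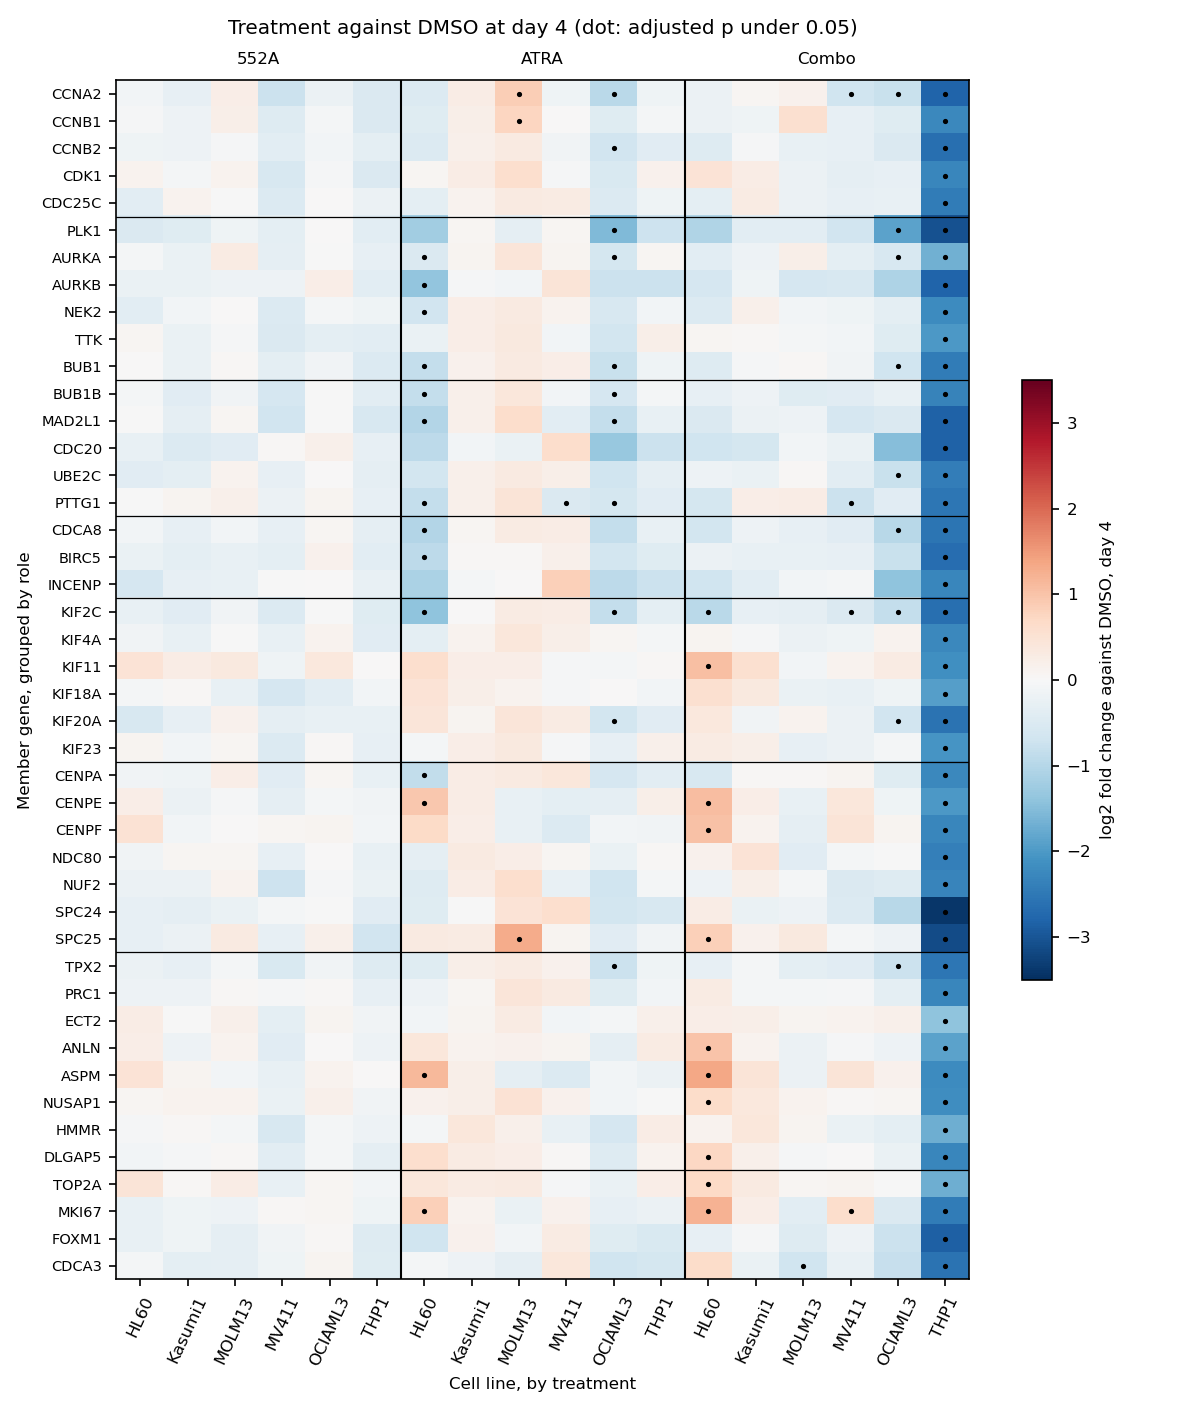
Change of the 44 genes (rows, by role) on day 4 against DMSO in each line and treatment (columns), as log2 fold change on a colour scale (blue below 0, red above), with a dot where the adjusted p was under 0.05. The THP1 Combo column is the lowest throughout, and the OCIAML3 ATRA and Combo columns and parts of the HL60 columns depart from 0 by less.

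Outside THP1 the Combo changes of day 4 ran from -1.88 (PLK1 in OCIAML3) to 1.35 (ASPM in HL60), in both directions. CCNB1 ranged from -0.42 ± 0.15 in OCIAML3 to 0.56 ± 0.21 in MOLM13 and CDK1 from -0.30 ± 0.25 in MV411 to 0.47 ± 0.19 in HL60, with no call in the 5 lines. PLK1 was below 0 in all 5, from -1.88 ± 0.47 in OCIAML3, where it fell, to -0.36 ± 0.31 in MOLM13. CDC20 was below 0 in all 5 as well, from -1.48 ± 0.47 in OCIAML3 to -0.10 ± 0.23 in MOLM13, without a call. BUB1 (-0.69 ± 0.19), KIF20A (-0.66 ± 0.17) and AURKA (-0.57 ± 0.18) fell in OCIAML3 and passed in none of the other 4. MKI67 rose in HL60 (1.21 ± 0.25) and MV411 (0.62 ± 0.17), while it fell in THP1. CENPE (1.07 ± 0.30) and TOP2A (0.70 ± 0.22) rose in HL60, and PTTG1 fell in MV411 (-0.74 ± 0.16). FOXM1 passed in none of the 5 lines and lay between -0.75 ± 0.29 in OCIAML3 and -0.05 ± 0.24 in Kasumi1.

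In HL60 some of the genes rose and others fell. With ATRA on day 4, 11 of the 44 were lower (14.6% of genes) and 3 higher (16.2%), the latter below the background. The median was -0.38 against 0.01 over all genes. KIF2C, a kinesin that takes apart microtubule ends, stood at 240.9 and 220.1 CPM in DMSO, at 109.2 and 74.8 CPM with ATRA (-1.42 ± 0.24) and at 132.6 and 119.6 CPM in Combo (-0.95 ± 0.24). AURKB, the kinase of the passenger complex, stood at 95.7 and 91.5 CPM in DMSO and at 53.3 and 23.9 CPM with ATRA (-1.37 ± 0.43). ASPM, a spindle pole protein, stood at 95.8 and 64.3 CPM in DMSO, at 162.0 and 218.0 CPM with ATRA (1.15 ± 0.31) and at 174.9 and 256.9 CPM in Combo (1.35 ± 0.31). The treated and DMSO libraries did not overlap for these 3 genes. Of all genes, both ATRA libraries lay below both DMSO libraries for 30.7% and above them for 35.8%. For Combo these shares were 34.2% and 38.6%. MKI67 rose from 209.5 and 190.8 CPM to 406.4 and 361.1 CPM with ATRA and to 410.3 and 569.3 CPM in Combo. With Combo on day 4, 10 were higher (15.2%), led by ASPM, MKI67, CENPE and KIF11, and 1, KIF2C, was lower (14.3%). The 1 lower was below the background.

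On day 2 more of the 44 were called higher than lower in HL60 with each treatment. The median change was 0.35 with ATRA and 0.17 with 552A, but -0.05 with Combo, where 24 of the 44 lay below 0. The 10 called higher with Combo were near the background of 21.2%. The 4 called lower with Combo and the 1 with ATRA were below theirs of 19.0% and 13.8%. ATRA raised 18 of the 44 (16.4% of genes), with CENPE at 1.85 ± 0.31, ASPM at 1.75 ± 0.31 and MKI67 at 1.60 ± 0.25, and lowered 1, MAD2L1 (-0.60; 13.8%). ASPM stood at 110.5 and 117.3 CPM in the DMSO libraries of day 2 and at 423.9 and 344.6 CPM with ATRA. Combo raised 10 (21.2%) and lowered 4 (19.0%), and 552A raised 3 on day 2 (1.22%), namely KIF11 (1.11), TOP2A (1.08) and ANLN (0.88), a count that was 0 without either 552A or DMSO library of day 2 or ATRA day 2 replicate 1, and 1 without ATRA day 2 replicate 2, Combo day 4 replicate 2 or either DMSO day 4 library. The call of MAD2L1 was lost without either ATRA or DMSO library of day 2 or Combo day 4 replicate 2. The Combo counts of day 2 became 6 higher without DMSO day 2 replicate 1, 2 lower without Combo day 2 replicate 1 or DMSO day 2 replicate 2, and 10 lower without Combo day 2 replicate 2. With 552A on day 4 none passed (0.139% lower, 0.786% higher; 1 with an unadjusted p under 0.05; 0 in DESeq2). In a contrast added after the data were seen, ATRA libraries of day 4 were lower than those of day 2 for 28 of the 44 (3.04% of genes).

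In HL60 the direction of a gene moved with its GC content. Over the 44 genes, the Pearson correlation of the change with gene GC was -0.639 for ATRA on day 4 and -0.582 for Combo, as a description over genes that share their libraries. On day 2 it was -0.765 for 552A, -0.684 for ATRA and -0.469 for Combo. After the GC correction the day 4 values were -0.403 and -0.401, and those of day 2 -0.43, -0.426 and -0.37. The counts with ATRA on day 4 became 21 lower and 2 higher (21.1% and 21.5% of all genes). Those with Combo on day 4 became 12 lower and 10 higher (21.5% and 21.3%), the 10 higher near the background. GC slopes of the ATRA libraries of day 4 were 0.36 and -0.494; the part of the trend in the calls was not tested beyond that correction. Single libraries moved these counts too. The ATRA count of day 4 was 5 lower without ATRA day 4 replicate 2, 4 without DMSO day 4 replicate 1 and 5 without DMSO day 4 replicate 2. The 3 higher became 1, 1 and 0 without those libraries in the same order, and 5 without DMSO day 2 replicate 1. The Combo count of 10 higher became 4 without Combo day 4 replicate 2 and 3 without DMSO day 4 replicate 2, and the 1 lower became 0 without either Combo day 4 library or DMSO day 4 replicate 1 and 2 without Combo day 2 replicate 2. The 18 higher with ATRA on day 2 became 10 without ATRA day 2 replicate 2 and 6 without DMSO day 2 replicate 1.

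**Figure D4:**
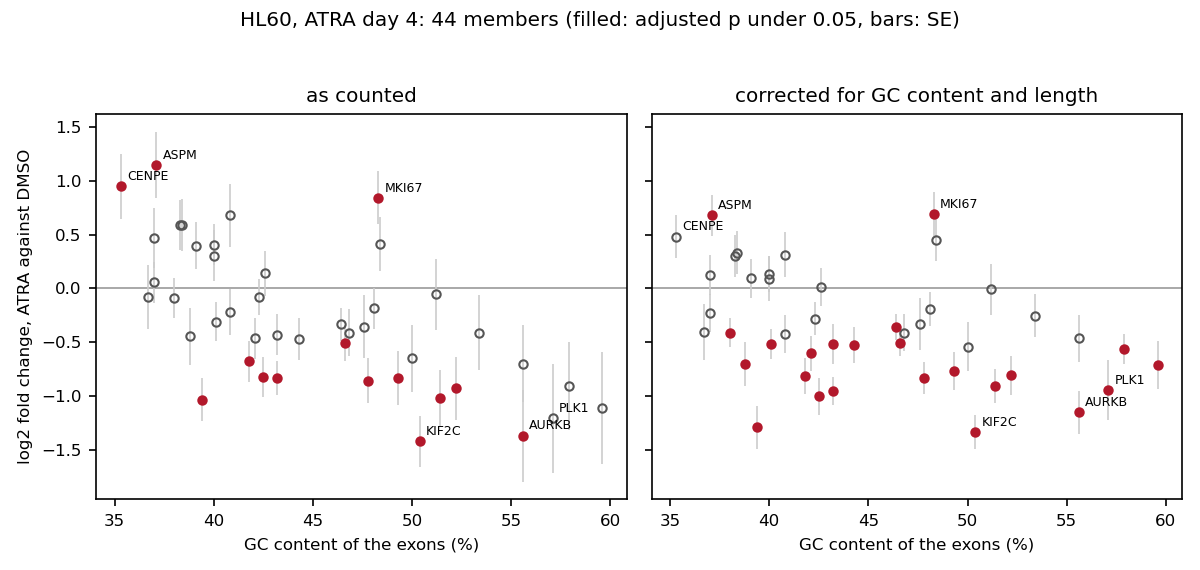
Change of each of the 44 genes in HL60 on day 4 against DMSO (vertical axis, log2 fold change) by the gene's GC content in percent (horizontal axis), for ATRA as counted (left) and after the GC and length correction (right), with SE bars and filled points where the adjusted p was under 0.05. ASPM and CENPE, of low GC, lie above 0 and AURKB, of high GC, lies below, with r = -0.639 as counted and -0.403 after the correction.

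In OCIAML3 a set of these genes fell with ATRA and with Combo, and none rose. ATRA lowered 12 of the 44 on day 2 (4.74% of genes) and 11 on day 4 (5.72%; median -0.58 against 0.03 over all genes), and Combo lowered 5 on day 2 (4.37%) and 9 on day 4 (5.07%; median -0.43 against 0.01). PLK1 stood at 112.5 and 96.0 CPM in DMSO on day 4, at 34.1 and 34.7 CPM with ATRA (-1.55 ± 0.46), at 29.8 and 27.1 CPM in Combo (-1.88 ± 0.47) and at 105.6 and 97.0 CPM with 552A. CDC20 stood at 161.3 and 126.9 CPM in DMSO and at 59.3 and 52.0 CPM with ATRA, but its change of -1.32 ± 0.46 was not called. BUB1 stood at 208.1 and 204.9 CPM in DMSO, at 114.2 and 117.2 CPM with ATRA (-0.78 ± 0.19) and at 112.7 and 146.0 CPM in Combo. For these 3 genes the ATRA and Combo libraries lay below both DMSO libraries and the 552A libraries of PLK1 lay within their range. Of all genes, 36.4% lay below in both ATRA libraries and 33.9% in both Combo libraries. CCNA2 (cyclin A2), at -0.93, and TPX2, at -0.74, also fell with ATRA.

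Both ATRA libraries of OCIAML3 lay below both DMSO libraries for 43 of the 44 genes on day 2 (39.1% of genes) and for 39 on day 4 (36.4%), many more than passed the test. After the GC correction ATRA lowered 39 and 38 on the 2 days (16.1% of all genes on each) and Combo 30 and 38 (16.6% and 16.2%). The correlation of the change with gene GC over the 44 genes was -0.602 for ATRA and -0.809 for Combo on day 4. The counts rested on single libraries. With ATRA on day 4 the count was 0 without ATRA day 4 replicate 1 or 2 or DMSO day 4 replicate 1, 5 without DMSO day 4 replicate 2, 6 without either DMSO day 2 library, 7 without 552A day 4 replicate 1, and 29 without either 552A day 2 library. With Combo on day 4 it was 0 without Combo day 4 replicate 1 or DMSO day 4 replicate 1, 2 without Combo day 4 replicate 2 or DMSO day 4 replicate 2, 5 without ATRA day 4 replicate 1 and 21 without either 552A day 2 library. On day 2 the ATRA count was 0 without ATRA day 2 replicate 1 or either DMSO day 2 library, 1 without ATRA day 2 replicate 2, 5 without ATRA day 4 replicate 2, 7 without 552A day 4 replicate 1 or Combo day 4 replicate 1, and 28 without either 552A day 2 library. The Combo count of day 2 changed by more than 1.5 times without each of the 16 libraries, from 0 without either Combo or DMSO library of day 2 to 22 without 552A day 2 replicate 1. The 552A day 2 group held a library that stands apart, replicate 2, with a GC slope of -0.954 and 41.1 CPM of PLK1 against 145.0 CPM in the other. With 552A alone none passed on day 4 (0.798% of genes lower, 1.86% higher; 0 with an unadjusted p under 0.05; 0 in DESeq2) or on day 2 (0.422% and 1.57%; 3 with an unadjusted p under 0.05; 0 in DESeq2), but without replicate 1 of that day 2 group 11 were called lower and 19 higher.

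In MOLM13 the genes fell with time in vehicle. DMSO libraries of day 4 were lower than those of day 2 for 31 of the 44 genes (2.12% of 19131 genes), with a median of -1.07 against 0.03 over all genes. CCNA2 stood at 209.8 and 179.3 CPM on day 2 and at 52.5 and 70.8 CPM on day 4 (-1.65 ± 0.19). CCNB1 stood at 176.6 and 142.5 CPM and then at 45.6 and 60.0 CPM, and KIF20A at 99.9 and 103.0 CPM and then at 28.6 and 43.3 CPM. The libraries of the 2 days did not overlap for these 3 genes, and the share of all genes without overlap was not taken here. MKI67 did not pass, at 293.6 and 679.1 CPM on day 2 and 287.4 and 359.3 CPM on day 4, and its day 2 libraries differed most from each other. The summed level went from 5234 ± 429 to 2600 ± 400 CPM (SD, n = 2). After the GC correction 40 were lower (median -0.97), where 7.95% of all genes were. The count was 3 without DMSO day 2 replicate 1, 1 without DMSO day 4 replicate 1 and 9 without DMSO day 4 replicate 2.

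**Figure D5:**
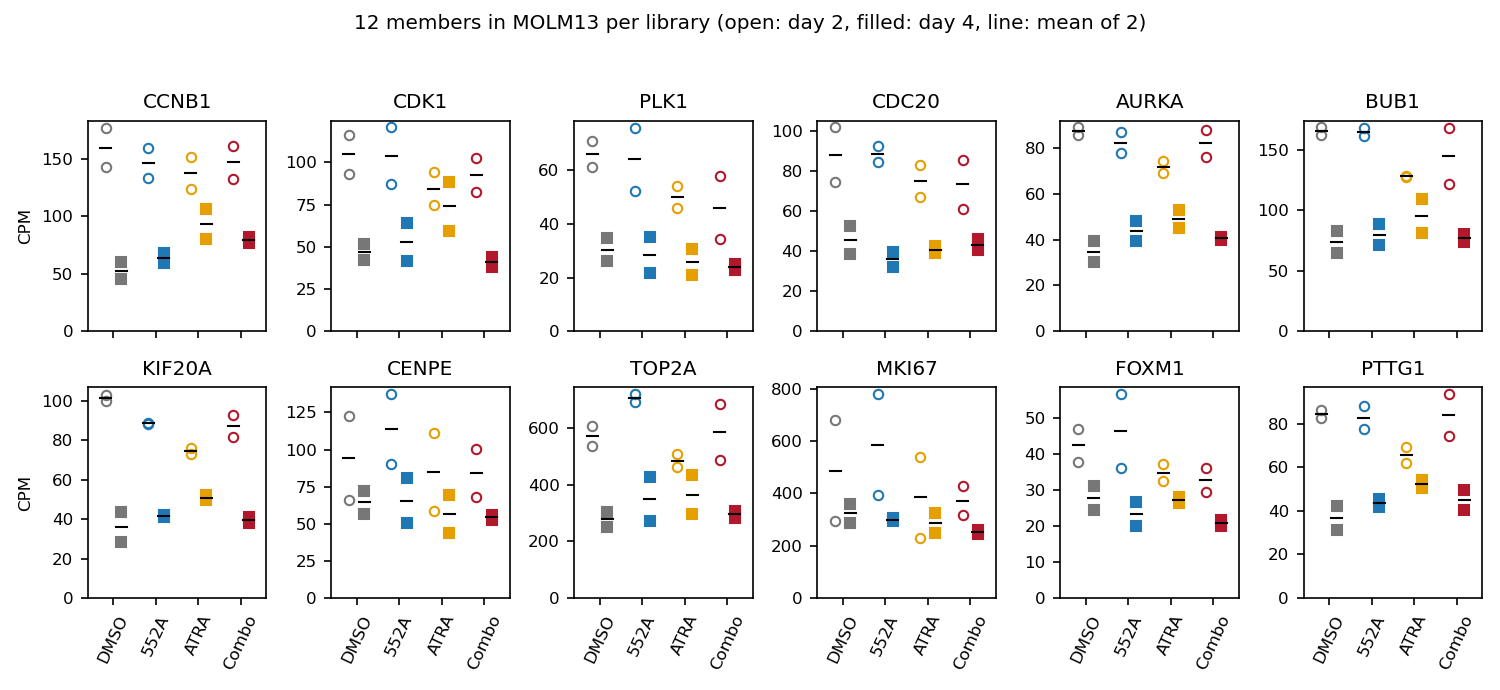
Levels of 12 of the genes in MOLM13 in CPM (vertical axis, linear from 0, 1 panel for each gene) by treatment, with open points for libraries of day 2, filled points for day 4 and a short line at the mean of 2. CCNB1 and KIF20A are lower in both DMSO libraries of day 4 than in both of day 2.

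The day 4 libraries of the other MOLM13 groups, in contrasts added after the data were seen, were lower than those of day 2 for 30 of the 44 with Combo (1.10% of genes), 9 with 552A (0.0941%) and 0 with ATRA (0.0366%; 22 with an unadjusted p under 0.05). Against DMSO on day 4, ATRA raised 3 of the 44 (5.08%), a count near the background. They were SPC25 (1.31 ± 0.23), CCNA2 (0.86 ± 0.19) and CCNB1 (0.75 ± 0.21), with CCNB1 at 106.4 and 79.8 CPM. Without ATRA day 4 replicate 1 or either DMSO day 4 library 1 of the 3 passed. Combo lowered 1 on day 4, CDCA3 (-0.69 ± 0.19; 5.90% of genes), a call lost without either Combo day 4 library or DMSO day 4 replicate 2. The 1 lower with Combo was below the background. With 552A none passed on day 4 (0.324% lower, 1.29% higher, 0 with an unadjusted p under 0.05, 0 in DESeq2). On day 2 none passed in MOLM13 with 552A (0.261% of genes lower, 1.16% higher), ATRA (1.02% and 1.51%) or Combo (2.44% and 4.65%), with 0, 4 and 3 at an unadjusted p under 0.05 and 0 in DESeq2. In the other 5 lines, none of the 44 passed between the vehicle libraries of the 2 days in edgeR, with 8 at an unadjusted p under 0.05 in HL60, 12 in MV411, 1 in OCIAML3, 0 in Kasumi1 and 0 in THP1. Of all genes 0.00535% were called lower and 0.0481% higher in HL60 and 0% in the other 4. DESeq2 called 1 lower in HL60 and 3 in MV411, where the GC correction gave 16 (1.34% of all genes). Across lines the median vehicle change from day 2 to day 4 was -0.30 and none passed, of the 44 or of all 18887 genes (22 of the 44 with an unadjusted p under 0.05).

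MV411 and Kasumi1 showed few changes. In MV411, Combo on day 4 lowered 3 of the 44 (13.6% of genes), PTTG1 (-0.74 ± 0.16), CCNA2 (-0.69 ± 0.23) and KIF2C (-0.52 ± 0.17), and raised MKI67 (12.6%). Both counts were below the background. PTTG1 stood at 95.3 and 115.7 CPM in DMSO, at 71.7 and 71.0 CPM with ATRA and at 59.2 and 63.5 CPM in Combo. MKI67 stood at 318.2 and 348.0 CPM in DMSO and at 474.9 and 520.9 CPM in Combo. Neither pair of groups overlapped. Of all genes, both Combo libraries lay below both DMSO libraries for 26.9% and above them for 22.2%, and both ATRA libraries lay below for 33.5%. The 3 lower became 8 after the GC correction, 6 without Combo day 4 replicate 1, and 1 without DMSO day 4 replicate 2 or any single library of day 2, and the 1 higher became 3 without Combo day 4 replicate 1 and 2 without DMSO day 4 replicate 2. ATRA on day 4 lowered 1, PTTG1 (-0.52 ± 0.16; 13.8%), a count that was 1 without either DMSO day 2 library or Combo day 4 replicate 2 and 0 without each other library, and after the GC correction the counts were 2 lower and 8 higher. Of all genes, the GC correction gave 19.8% lower with Combo on day 4, and 20.4% lower and 18.8% higher with ATRA. The corrected counts of 8 lower with Combo and 8 higher with ATRA were near these shares. Before the correction, the 1 lower with ATRA was below its background of 13.8%. GC slopes were -0.568 in DMSO day 4 replicate 2 and -0.717 in Combo day 4 replicate 2. With 552A on day 4 none passed (1.71% lower, 3.23% higher; 9 with an unadjusted p under 0.05; 0 in DESeq2), and 1 did without DMSO day 4 replicate 1. On day 2 of Combo SPC24 fell (-0.865 ± 0.203, 8.56% of genes) and MKI67 rose (0.74 ± 0.166, 9.58%), each count below the background. Both calls were lost without Combo day 2 replicate 2 or DMSO day 2 replicate 1, and 4 were higher without either Combo day 4 library and 3 and 2 without DMSO day 4 replicates 1 and 2. With 552A (0.398% lower, 1.41% higher) and ATRA (3.52% and 3.18%) none passed on day 2, with 2 and 1 at an unadjusted p under 0.05 and 0 in DESeq2.

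In Kasumi1 none of the 44 passed with any treatment on either day in edgeR or DESeq2. On day 4, 2, 1 and 5 of the 44 had an unadjusted p under 0.05 with 552A, ATRA and Combo, where 0.883%, 0.0167% and 3.39% of genes were called lower and 4.24%, 0.0833% and 6.89% higher. On day 2, 3, 3 and 2 had such a p, where 0.322%, 0% and 0.694% of genes were called lower and 3.26%, 0.0444% and 3.18% higher. CCNB1 stood at 150.7 and 137.2 CPM in DMSO and at 143.4 and 125.9 CPM in Combo, so that the groups overlapped. Of all genes, the GC correction gave 10.8% lower and 10.9% higher with Combo on day 4, and 6.74% lower with 552A. The Combo counts after the GC correction were 3 lower and 2 higher, below these shares, with 9 lower for 552A. Leaving out Combo day 4 replicate 2 moved the uncorrected Combo counts in both directions. That fit rests on Combo day 4 replicate 1, a library that stands apart, with a GC slope of -0.658 against 0.174 in replicate 2.

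For changes common to the lines, the 6 lines served as replicates. Combo lowered 14 of the 44 on day 2 (13.4% of genes) (median -0.29 against 0.05 over all genes) and 6 on day 4 (11.7%; median -0.40 against 0.02), which is near the background on day 4. On day 2 SPC24 changed most (-0.77 ± 0.15), with MAD2L1 (-0.71), PLK1 (-0.71), CDC20 (-0.66), AURKB (-0.63) and BIRC5 (-0.63) next. On day 4 the 6 were PLK1 (-1.10 ± 0.29), CDC20 (-0.87), AURKB (-0.86), KIF2C (-0.83), INCENP (-0.75) and CDCA8 (-0.73). The lines weighed unequally in this. The day 4 count was 1 without THP1 or OCIAML3 and 3 without Kasumi1, and the median went from -0.40 to -0.16 without THP1. The day 2 count was 7 without THP1, with 1 then called higher, and 8 without HL60 or OCIAML3. Without the 5 libraries that stand apart it was 0 on day 4.

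ATRA lowered 4 across lines on day 2 (5.17% of genes), PLK1 (-0.65 ± 0.15), AURKB (-0.53), CDC20 (-0.52) and INCENP (-0.46). The count was 0 after the GC correction, 0 with replicate 1 or replicate 2 alone, 0 without HL60, OCIAML3 or THP1, 1 without MOLM13 and 2 without MV411, without the 5 libraries that lie far from their line or with no low-count filter. It was 7 with the libraries unsummed and the replicate block. On day 4 none passed with ATRA (3.22% lower, 4.64% higher; 0 with an unadjusted p under 0.05; 0 in DESeq2). With 552A none passed on day 2 (0.746% lower, 1.85% higher; 6 with an unadjusted p under 0.05) or day 4 (0.0138% and 0.335%; 0 with an unadjusted p under 0.05), and DESeq2 called none.

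Before any drug, the lines already differed in these genes. In the 24 DMSO libraries the level differed between lines for 44 of the 44, as it did for 92.5% of 20251 genes. On the scale of CPM per kilobase of exon, the median level of the 44 ran from 17 in MOLM13 and 18.8 in HL60 through 20.7 in Kasumi1, 25.3 in MV411 and 25.9 in THP1 to 31 in OCIAML3. These levels pool the vehicle libraries of both days, and the place of MOLM13 differed between the days. Its summed level of 5234 CPM on day 2 stood beside 5074 CPM in HL60 and 4602 CPM in Kasumi1, while on day 4 its 2600 CPM stood beside 4206 and 4666 CPM. In the pooled levels OCIAML3 was highest for 19 genes, THP1 for 16, HL60 for 4, Kasumi1 for 3, MV411 for 2 and MOLM13 for 0, while MOLM13 was lowest for 22. CDC20 varied most, at 402 ± 18.7 (SD, n = 4) in THP1 against 32.8 to 84.9 in the other lines. UBE2C, the ubiquitin-conjugating enzyme of the anaphase-promoting complex, came next, with 87.6 in OCIAML3 against 13.2 in HL60. CCNB1 ordered the lines as HL60 (41.3 ± 10.2), MOLM13 (41.5 ± 24.8), Kasumi1 (54.6 ± 4.44), MV411 (69.8 ± 13.2), OCIAML3 (79.3 ± 11.4) and THP1 (95.7 ± 6.11) (SD, n = 4 each), and the SD ranges of every pair of neighbours in this order overlapped. TOP2A ran from 66.0 to 126 and ECT2, the most even gene, from 9.07 to 14.1. THP1 was not high throughout, being lowest of the 6 lines for MKI67 (15.7) and AURKB (11.6).

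Other cell cycle genes, from lists that do not hold the 44, moved with them in THP1 on day 4 of Combo, where 16.7% of all genes were called lower and 18.8% higher. All 22 DNA replication genes fell, with a median of -3.14, below that of the 44, and with MCM4 (-3.49 ± 0.15), a subunit of the replicative helicase, and GINS2 (-3.41 ± 0.16) passing with the smallest p. Of 107 other mitosis genes 76 fell and 1 rose (median -1.50). These include 22 of 28 other kinetochore and checkpoint genes that fell, such as HJURP (-2.94 ± 0.14), the chaperone of CENPA, and ZWINT (-2.75 ± 0.16). Of 20 condensin and cohesin genes 14 fell, led by NCAPH (-2.94 ± 0.14), and of 11 entry kinases and phosphatases 10 fell, led by CDC25A (-3.56 ± 0.19), the phosphatase that activates cyclin-dependent kinases. The 17 core subunits of the anaphase-promoting complex moved less, with 6 lower and a median of -0.44. Of 11 genes of the DREAM, MuvB and MYBL2 list 6 fell (median -0.80), including MYBL2 itself (-3.72 ± 0.46) and TFDP1 (-1.35 ± 0.12). Among 5 tested inhibitors of cyclin-dependent kinases, CDKN1A (p21) rose with Combo (2.05 ± 0.25) and with ATRA (1.66 ± 0.25), while CDKN2D (-1.96 ± 0.44) and CDKN2C (-0.57 ± 0.17) fell with Combo.

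The same lists in the other lines gave smaller counts. In MOLM13 vehicle, from day 2 to day 4, where 2.12% of all genes were lower, 19 of 22 replication genes (median -1.40) and 29 of 107 other mitosis genes fell, with ORC1 (-1.57 ± 0.17), RRM2 (-1.45 ± 0.17) and NCAPH (-1.71 ± 0.17) among them. In HL60 with ATRA on day 4, where 14.6% of all genes were lower and 16.2% higher, 16 of 22 replication genes fell and 1 rose, and 21 of 107 other mitosis genes fell and 2 rose, with MCM10 (-1.32 ± 0.15), MCM6 (-1.29 ± 0.16) and CENPH (-2.07 ± 0.24) among those lower. The inhibitor CDKN2B rose there with ATRA (1.75) and Combo (1.77). In OCIAML3 with ATRA on day 4, where 5.72% of all genes were lower, 6 of 22 replication genes and 9 of 107 other mitosis genes fell, the latter near the background. CDKN2A fell with 552A (-1.89), ATRA (-2.59) and Combo (-3.04). CDKN1A, which rose in THP1, fell with Combo in MOLM13 (-2.11 ± 0.35) and MV411 (-1.23 ± 0.28), and rose with ATRA in MV411 (0.955 ± 0.276). In MV411 CDKN2D (1.85), CDKN2C (0.915) and CDKN1B (0.538) also rose with ATRA, while CDKN2A and CDKN2B were not called. CDKN2B rose there with Combo (1.47). CDKN1B (p27) rose in Kasumi1 by 0.82 with 552A and 0.83 with Combo.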

How the data were processed

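The values the authors deposited are raw read counts per gene, in whole numbers, for 96 libraries. Per the submitters' processing notes, reads were handled with Trimmomatic 0.36, STAR 2.4.2a and HTSeq 0.6.0 on GRCh38, and per the labels' protocols libraries were stranded total RNA. The annotation release and the strand setting are not given in the sources used here. Values of overlapping and antisense genes are less certain for that reason. 552A was taken to mean GSK2879552, the only protocol arm left. Identifiers were matched to GENCODE 29, which covered 56994 of the 60552 rows. Unmatched rows held 0.0417% of counts.

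The 44 genes, the other lists and the comparisons were chosen with earlier results of these data known. Genes described in full were CCNB1, CDK1, PLK1, CDC20, AURKA, BUB1, KIF20A, CENPE, TOP2A, MKI67, FOXM1 and PTTG1, with the member of the largest fall and the member of the largest rise among those called in each comparison of day 4, and up to 2 genes of each other list with the smallest p. The rule also took any member called in no comparison, and there was none. Other members are named by the text after their values were seen.

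Counts were tested in R 4.3.3 with edgeR 4.0.16 (quasi-likelihood, TMM, filterByExpr), with Benjamini-Hochberg adjustment over all genes tested and a call at adjusted p under 0.05. Each line had 1 fit of 16 libraries and 8 groups, with 8 residual degrees of freedom. Across lines the replicates were summed and the line was a block. The SE is the size of the log2 change over the square root of F. CPM used TMM over all 96 libraries. Alternatives were DESeq2 1.42.0, DESeq2 size factors, no low-count filter, the replicate block, a GC and length correction by splines (limma 3.58.1; 5 and 4 degrees of freedom) and each library left out. Contrasts chosen after seeing the data are named as such. The alternatives of the F tests, of the vehicle days and of Combo beyond the sum were not planned in advance. The 5 libraries that stand apart were picked from these data. In simulated data for THP1 Combo on day 4 (19189 genes) 72% of genes changed by 1 on the log2 scale and 100% of those changed by 2 were recovered, with 12 false calls. Across lines (21831 genes) 98% and 100% were recovered, with 11 false calls. The simulated counts were independent, with the same spread set for every gene and no GC trend or libraries that stand apart. They check the code and do not measure the error rate in these libraries. All replicate pairs differed by more than sampling noise (smallest chi-square per degree of freedom 9.902).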

Additional observations from a re-analysis of the deposited data

Results flagged for a closer look

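The THP1 response to Combo lay apart from those of the other 5 lines in the median change of the 44 genes, at -1.21 on day 2 and -2.33 on day 4 (log2). In each case its gap to the nearest line was a larger share of the whole range than the 95% limit of Dixon's test for 6 values, at 0.677 and 0.805 of the range. Chance puts about 1 in 20 groups past that limit.

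The response differed between lines on day 4 for 21 of the 44 genes with ATRA and for 43 with Combo, by F tests of the interaction of line and treatment.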

How the results depend on the processing

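The falls in THP1 with Combo kept their counts within 1.5 times under every alternative run, and so did Combo against each single agent there on day 4 and against 552A on day 2. Against ATRA on day 2 the count of 31 was 9 to 37 when single libraries were left out. Over all alternatives other than single left-out libraries, 853 counts of called members stayed within 1.5 times and 185 did not. Among changes of named members, 2 reversed with a call, both in MV411 with ATRA on day 4. They were PLK1, at -0.44 after the GC correction, and TOP2A, at 0.24 with the replicate block and the GC correction. The cause was not tested for any of these. Counts below are given for day 2 (d2) and day 4 (d4) against DMSO, lower unless called higher. Shares of all genes were taken only with the GC and length correction alone and with a line left out. The other counts have no background and show only how a count moved with the setting. With the GC correction alone, 24% of all genes were called lower and 28.4% higher for HL60 Combo d2.

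With DESeq2 the counts were, in HL60, 8 higher for 552A d2; in MV411, 1 higher for ATRA d4 and 2 higher for Combo d2; in OCIAML3, 9 and 15 for Combo d2 and d4; in THP1, 3 for 552A d4; and from vehicle d2 to d4, 1 in HL60 and 3 in MV411. With DESeq2 size factors they were 1 higher for MV411 ATRA d4 and 1 for THP1 552A d4. With no low-count filter they were, in HL60, 7 higher for 552A d2 and 4 for Combo d4; in Kasumi1, 1 higher and 1 lower for Combo d4; in MOLM13, 0 for Combo d4; in MV411, 3 higher and 0 lower for ATRA d4, 3 higher and 3 lower for Combo d2, 1 for 552A d4 and 6 for vehicle time; in OCIAML3, 10 and 15 for Combo; in THP1, 1 higher and 2 lower for 552A d2 and 3 for ATRA d4; and across lines 2 for ATRA d2 and 7 for vehicle time.

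Replicate numbers were not taken as a pairing, because the labels do not tie them and in no line did every pair of same-numbered libraries deviate together on both days (lowest r from -0.881 in MV411 to 0.255 in THP1 on day 4). With the replicate block the counts were, in Kasumi1, 2 higher and 1 lower for Combo d4; in MV411, 2 higher for Combo d2; in HL60, 19 for ATRA d4, 9 for Combo d2 and 10 for Combo d4; in OCIAML3, 3 for Combo d2; and in THP1, 2 for ATRA d4. Across lines, with the libraries unsummed and the replicate block, they were 4 higher and 1 lower for 552A d2, 1 higher and 7 lower for ATRA d2 and 20 for Combo d4.

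After the GC and length correction the counts were, in HL60, 2 for ATRA d2, 21 for ATRA d4 and 12 for Combo d4; in Kasumi1, 1 higher and 2 lower for 552A d2, 9 for 552A d4, and 2 higher and 3 lower for Combo d4; in MOLM13, 2 for ATRA d2, 5 for Combo d2, and 1 higher and 4 lower for Combo d4; in MV411, 1 higher and 1 lower for 552A d2, 7 for 552A d4, 8 higher and 2 lower for ATRA d4, 2 higher and 4 lower for Combo d2, 8 for Combo d4 and 16 for vehicle time; in OCIAML3, 39 and 38 for ATRA and 30 and 38 for Combo; in THP1, 5 and 24 for 552A and 30 and 21 for ATRA; and across lines 0 for ATRA d2. The response differed between lines for 1 gene with 552A and 37 with ATRA, where the share of all genes was not taken. Of all genes, the shares lower after the correction were 19.9% for HL60 ATRA d2 and 4.29% for Kasumi1 552A d2. In MOLM13 they were 2.35% for ATRA d2, 7.48% for Combo d2 and 11.9% for Combo d4. In MV411 they were 3.04% and 6.71% for 552A d2 and d4 and 15.8% for Combo d2, and in THP1 7.93% for 552A d2. Shares higher were 6.06% for Kasumi1 552A d2, 12.8% for MOLM13 Combo d4, and 4.41% and 15.4% for MV411 552A d2 and Combo d2.

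With the replicate block and the GC correction together they were, in HL60, 8 higher for 552A d2, 2 for 552A d4, 4 and 27 for ATRA, 16 higher and 10 lower for Combo d2 and 17 for Combo d4; in Kasumi1, 1 higher and 11 lower for 552A d2, 19 for 552A d4, 1 higher and 5 lower for Combo d2, and 5 higher and 6 lower for Combo d4; in MOLM13, 11 for ATRA d2, 6 higher and 2 lower for ATRA d4, 11 for Combo d2, and 1 higher and 10 lower for Combo d4; in MV411, 1 higher and 1 lower for 552A d2, 10 for 552A d4, 3 higher for ATRA d2, 13 higher for ATRA d4, 4 higher and 7 lower for Combo d2, 14 for Combo d4 and 18 for vehicle time; in OCIAML3, 1 higher for 552A d4, 39 and 40 for ATRA and 33 and 38 for Combo; and in THP1, 8 and 31 for 552A and 38 and 26 for ATRA.

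Across lines, replicate 1 alone gave 0 for ATRA d2 and 3 for Combo d4, and replicate 2 alone 0 for ATRA d2, 5 for Combo d2 and 2 for Combo d4. Without the 5 libraries that stand apart the counts were 2 for ATRA d2 and 0 for Combo d4.

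Leaving out each library in turn, where the lone library of a group is assumed to vary like the other groups, gave these ranges. In HL60 they were 0 to 4 higher for 552A d2, 6 to 18 higher and 0 to 1 lower for ATRA d2, 0 to 5 higher and 4 to 14 lower for ATRA d4, 6 to 10 higher and 2 to 10 lower for Combo d2, and 3 to 11 higher and 0 to 2 lower for Combo d4. In Kasumi1 they were 0 to 1 higher for Combo d2, and 0 to 9 higher and 0 to 8 lower for Combo d4. In MOLM13 they were 1 to 3 higher for ATRA d4, 0 to 1 for Combo d4 and 1 to 37 for vehicle time. In MV411 they were 0 to 1 for 552A d4, 0 to 3 higher and 0 to 1 lower for ATRA d4, 0 to 4 higher and 0 to 1 lower for Combo d2, and 1 to 3 higher and 1 to 6 lower for Combo d4. In OCIAML3 they were 0 to 19 higher and 0 to 11 lower for 552A d2, 0 to 28 and 0 to 29 for ATRA d2 and d4, and 0 to 22 and 0 to 21 for Combo d2 and d4. In THP1 they were 0 to 5 higher and 0 to 7 lower for 552A d2, 0 to 6 for 552A d4, and 0 to 15 and 0 to 6 for ATRA d2 and d4. Leaving out each line in turn gave, across lines, 0 to 5 for ATRA d2, 0 to 1 higher and 7 to 12 lower for Combo d2 and 1 to 5 for Combo d4.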
